A study of Mus musculus with 6 samples.

Results

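Synaptic vesicle and secretory granule genes encode the proteins with which neurons and neuroendocrine cells store transmitters and peptides and release them. They were described here in mouse enterospheres, which are progenitors of the enteric nervous system taken from the gut muscle of newborn C57BL/6 mice and kept as floating balls of cells. The list holds 45 genes, taken by name. It was chosen with earlier results of these data known, so its shares beside those of all genes are a description. 44 of them had a probe set that the array's annotation assigns to them alone, out of 19938 genes measured in this way, and the probe set of highest mean stood for each gene. Vamp2, a vesicle SNARE, had no such probe set and was not analysed here. All samples were spheres of neonatal (P0) C57BL/6 mice that had grown with epidermal and fibroblast growth factor and were then moved to differentiation medium without them. The T3 group held 3 samples kept for 1 further day with triiodothyronine (T3, the active form of thyroid hormone) at 100 nM, as the labels' unit was read, and the untreated control group held 3 samples kept for that day without it. A sample pools 3 mice and was measured on 1 array. The labels do not say that samples of one group were separate cultures, so each p-value covers only the spread among these samples, which may be technical.

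Regulated release works through a common machine. A vesicle is docked at the active zone by Rab3 and scaffold proteins and primed by Unc13 and complexin. It fuses when calcium binds synaptotagmin and the SNARE proteins on vesicle and plasma membrane pull the membranes together. Synaptic vesicles are then recovered by endocytosis, whereas dense-core granules, built around granins, carry peptides and amines and are made anew in the Golgi. Enteric neurons use both kinds of carrier, and thyroid hormone acts in developing nerve cells through nuclear receptors that switch genes on or off.

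T3 raised 11 of the 44 genes and lowered none by the test used throughout (limma, adjusted p under 0.05 over all genes). Over all genes 3.1% were called, 2.28% higher and 0.823% lower. The 11 were the synaptotagmin genes Syt12, Syt9, Syt5 and Syt2, the SNARE gene Snap25, the granule priming gene Cadps, the vesicle membrane genes Sv2a and Syngr1, the synapsin gene Syn2 and the granin genes Chga and Scg2. Their log2 changes ran from 0.33 for Snap25 to 1.89 for Syt12. An unadjusted p under 0.05 was reached by 24 of the 44 genes, all of them higher with T3, against 13.7% of all genes, 8.92% higher and 4.8% lower. The median log2 change of the 44 genes was 0.23, against 0.01 over all genes. Of the 44, 39 had a change above 0, against 53.3% of all genes, and the sign of 9 of the 44 (Syt1, Syt11, Unc13a, Rims1, Bsn, Rph3a, Sv2c, Synpr and Syn3, all with small changes) turned under some other scaling, weighting or set of arrays. All T3 values lay above all control values for 24 genes, against 11.9% of all genes, and below them for 1 gene, Sv2b, against 7.55%. The number called changed with the arrays used, among the 44 and over all genes. Without control replicates 1, 2 and 3 it was 3, 14 and 6 of the 44. Without T3 replicates 1, 2 and 3 it was 5, 5 and 3. Over all genes 618 were called with all arrays. That number was 191, 640 and 405 without control replicates 1, 2 and 3, and 395, 262 and 256 without T3 replicates 1, 2 and 3. Syt12, Syt9 and Syn2 passed in all 6 of these fits.

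**Figure D1:**
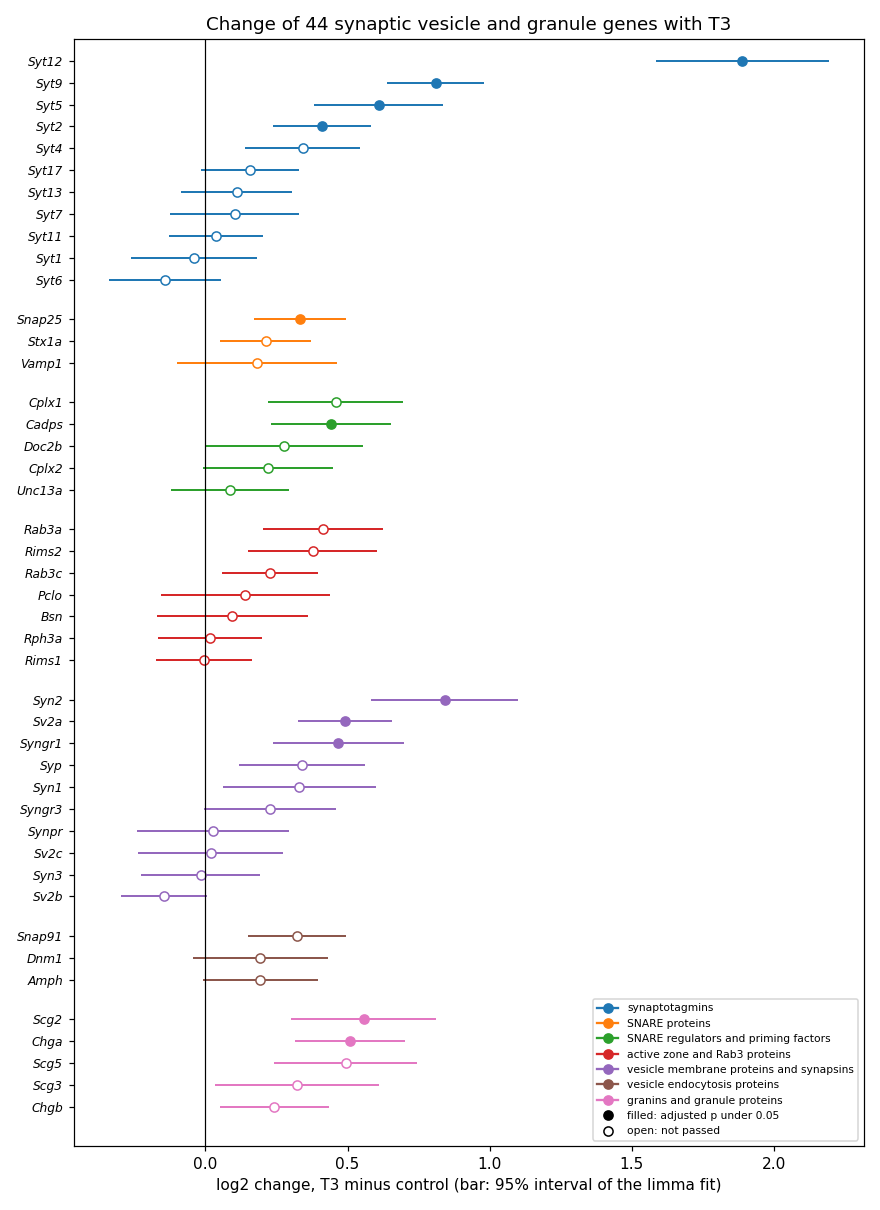
Log2 change (T3 minus control, x axis) of the 44 genes, in blocks by role and coloured by role. Points are fitted changes, bars their 95% intervals, and filled points the 11 genes with an adjusted p under 0.05. Syt12 stands at 1.89 and the next largest changes, Syn2 and Syt9, at 0.84 and 0.81, while Syt6 and Sv2b have the lowest values, -0.14 and -0.15.

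The spheres carried the signal of the hormone response and of several cell types. Klf9 and Hr, direct targets of the T3 receptor in many tissues, had log2 changes of 1.86 ± 0.08 (SE) and 1.92 ± 0.07 (SE). Neural markers had list means of 9.40 to 9.59 (19 pan-neuronal) and 9.81 to 9.89 (10 enteric glia and Schwann cell) on the control arrays. Bright ones in controls were Stmn2 of neurons, at 11.63 ± 0.10 (SD, n = 3), and Foxd3, of the glial list and of neural crest cells, at 10.60 ± 0.03 (SD, n = 3). The dimmest gene of these lists had a mean over all 6 arrays of 5.38 and 5.52. Markers of fibroblasts and mesenchyme were present too, with a list mean of 10.27 to 10.38 on the control arrays. Epithelial and enteroendocrine markers, which matter here because gut endocrine cells also make granins, had list means of 5.19 to 5.48 on control and 5.34 to 5.39 on T3 arrays. None of these 16 genes passed (limma; 1 had an unadjusted p under 0.05), and their control values ran from 3.38 for Neurod1 to 7.15 for Krt8, with Epcam at 4.37 and Neurog3 at 4.85. The 25th percentile of genes lay at 4.98 to 5.16 on the 6 arrays, so the list as a whole was dim but stood a little above it.

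Neuron markers outside the vesicle machinery moved in both directions, with more of them higher than lower with T3. Of 19 measured pan-neuronal markers, the intermediate filament genes Prph and Ina rose, by 0.94 ± 0.10 (SE) and 0.56 ± 0.10 (SE) on the log2 scale, Dcx, of immature neurons, fell by 0.36, and 16 did not pass. The change of Prph was larger than that of any of the 44 vesicle and granule genes but Syt12. The median log2 change of the 19 pan-neuronal markers was 0.07, and 13 of them had a change above 0, against 53.3% of all genes. At an unadjusted p under 0.05 (limma), 6 were higher and 1 lower, against 8.92% and 4.8% of all genes. All T3 values lay above all control values for 8 of the 19, 42.1%, against 11.9% of all genes. They lay below them for 2, 10.5%, against 7.55%. The mean log2 value of this list was 9.40 to 9.59 on the control arrays and 9.61 to 9.69 on the T3 arrays, and that of the 44 vesicle and granule genes was 8.60 to 8.73 and 8.89 to 9.03. Both lists thus lay higher on every T3 array. The part of neuron number or neuronal RNA content in the rise of the vesicle genes was not tested. In whole spheres, more cells of a type and more RNA per cell cannot be told apart. The call of Dcx was lost whichever single array was left out and that of Ina without any array but control replicate 2. Of the other cell types the spheres could hold, 10 glial markers had 1 gene called higher and 0 lower, 10 of smooth muscle 3 and 2, 10 of fibroblasts 1 and 1, 8 of endothelium 1 and 2, and 10 of macrophages 0 and 0 (limma; none of the macrophage genes had an unadjusted p under 0.05), and their part in the values below was not tested.

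The sequence upstream of a gene's start shows which of these genes carry the short motifs that nuclear receptors and other regulators are known to bind. RefSeq promoters (build GRCm38.p6, from 250 bases before to 50 bases after a start) were at hand for 33 of the 45 genes, 45 promoters in all, and for 8 of the 11 that rose. For Syt12, Syt5 and Snap25 none was used here. Each motif was searched on both strands without mismatch. The core site of the thyroid hormone receptor, AGGTCA, was found in 5 of the 45 promoters, 11.1%, against 16.3% of all 32851 promoters. Of the 8 genes that rose and had a promoter, Syt2 and Syngr1 held it. The other genes that held it, Syt1 and Syt6, did not pass. Syt1, Syt2 and Syt6 did not hold it in all of their promoters, and overlapping promoters of Syt6 share the same site. A direct repeat of this core site with 4 bases of any kind between the copies, the arrangement known to bind the T3 receptor, occurred in 0 of the 45 and in 5 of all promoters. The cyclic AMP response element, TGACGTCA, was found in 3 of the 45 promoters, 6.67%, against 1.79% of all. Its shorter form TGACG, which the full element also contains, was found in 11, 24.4%, against 20.8%. The left part, TTCAGCACC, of RE1, the element bound by the repressor of neuronal genes Rest, was found in 3, 6.67%, against 0.371%. Its right part, GGACAG, was found in 15, 33.3%, against 22.2%, and both parts in this order with 2 bases between them in 0, against 0.0122% of all.

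The 6 promoters below are shown because they hold these motifs and belong to genes that rose (Chga, Scg2, Syngr1, Syt2) or to their relatives that did not pass (Chgb, Syn1). They are written from 5′ to 3′ along the gene, and capitals mark the thyroid core site, the cyclic AMP element or its shorter form, and the left part of RE1, on either strand.
Chga, chr12:102554691-102554990, plus strand: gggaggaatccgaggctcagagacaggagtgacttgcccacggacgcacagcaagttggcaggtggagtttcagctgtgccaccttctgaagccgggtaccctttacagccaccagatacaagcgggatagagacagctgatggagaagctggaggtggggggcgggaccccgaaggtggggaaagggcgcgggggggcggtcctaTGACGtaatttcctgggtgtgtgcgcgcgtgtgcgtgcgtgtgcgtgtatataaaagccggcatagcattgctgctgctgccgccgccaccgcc
Chgb, chr2:132781392-132781691, plus strand: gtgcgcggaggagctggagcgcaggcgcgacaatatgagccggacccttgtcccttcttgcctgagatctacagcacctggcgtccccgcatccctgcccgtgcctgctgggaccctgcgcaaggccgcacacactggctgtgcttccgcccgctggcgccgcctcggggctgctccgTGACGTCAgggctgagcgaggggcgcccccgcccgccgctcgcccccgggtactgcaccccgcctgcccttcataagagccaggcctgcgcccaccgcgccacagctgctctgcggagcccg
Scg2, chr1:79439977-79440276, minus strand: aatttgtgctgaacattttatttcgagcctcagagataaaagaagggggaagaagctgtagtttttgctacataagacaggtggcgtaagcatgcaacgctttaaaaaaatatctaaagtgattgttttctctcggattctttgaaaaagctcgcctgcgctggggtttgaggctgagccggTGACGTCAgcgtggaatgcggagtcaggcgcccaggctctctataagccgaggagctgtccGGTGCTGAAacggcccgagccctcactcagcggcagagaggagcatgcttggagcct
Syn1, chrX:20920869-20921168, minus strand: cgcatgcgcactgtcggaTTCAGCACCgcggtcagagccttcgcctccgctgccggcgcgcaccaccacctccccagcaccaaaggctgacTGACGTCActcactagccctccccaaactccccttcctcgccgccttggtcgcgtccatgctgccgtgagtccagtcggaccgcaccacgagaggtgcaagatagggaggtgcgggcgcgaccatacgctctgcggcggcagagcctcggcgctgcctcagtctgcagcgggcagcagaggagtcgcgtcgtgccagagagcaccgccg
Syngr1, chr15:80091084-80091383, plus strand: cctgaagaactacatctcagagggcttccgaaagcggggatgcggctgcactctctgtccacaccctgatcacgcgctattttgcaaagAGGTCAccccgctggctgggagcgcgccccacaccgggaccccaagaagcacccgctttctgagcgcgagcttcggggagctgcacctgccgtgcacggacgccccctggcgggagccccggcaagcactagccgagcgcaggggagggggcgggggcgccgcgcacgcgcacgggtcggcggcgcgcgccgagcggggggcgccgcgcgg
Syt2, chr1:134646362-134646661, plus strand: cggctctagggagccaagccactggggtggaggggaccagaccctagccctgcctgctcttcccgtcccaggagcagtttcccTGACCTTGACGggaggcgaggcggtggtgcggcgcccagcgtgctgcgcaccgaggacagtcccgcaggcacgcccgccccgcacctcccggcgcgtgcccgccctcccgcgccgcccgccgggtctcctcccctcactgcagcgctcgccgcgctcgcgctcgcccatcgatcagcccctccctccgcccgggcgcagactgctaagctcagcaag

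In the promoter of Chga the shorter form TGACG begins 44 bases before the start. The full element TGACGTCA begins 72 bases before the start in Chgb, 68 in Scg2 and 159 in Syn1. Scg2 also holds the left part of RE1 in reverse, beginning 7 bases before its start and directly preceded by the right part in reverse, in lower case, at 13 bases, so that both parts abut there with no base between them. Syn1 holds it forward at 232 bases. The thyroid core site of Syngr1 begins 161 bases before the start, and that of Syt2, in reverse, begins 167 bases before it and directly precedes a TGACG. Genes with and without a full element stand on both sides of the threshold: Scg2 rose and Chgb and Syn1 did not pass. Rest itself had a log2 change of -0.06 ± 0.09 (SE, adjusted p = 0.878, limma). None of the 9 genes of Rest and its partners passed (1, Rcor2, had an unadjusted p under 0.05, with a log2 change of -0.36). Their changes were below 0 for 8 of the 9, against 9321 of all 19938 genes, with a median of -0.05. For 3 of them, Rcor2, Hdac1 and Hdac2, all T3 arrays lay below all control arrays, against 7.55% of all genes. The list mean of the 9 genes was 9.32 to 9.39 on the control arrays and 9.25 to 9.28 on the T3 arrays. The part of these 9 genes in the rise of the vesicle genes was not tested.

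Synaptotagmins are the calcium sensors of release and their relatives, and the largest single change of the 44 genes, that of Syt12, was among them. 4 of the 11 genes rose, against 2.28% of all genes, and the other 7 did not pass. The median log2 change was 0.16. Syt12, a family member that does not bind calcium and a gene known to respond to thyroid hormone in the developing brain, had log2 values of 5.05, 4.82 and 5.29 on control replicates 1 to 3 and of 6.77, 6.96 and 7.10 on T3 replicates 1 to 3. The lowest T3 array lay well above the highest control array. The log2 change was 1.89 ± 0.13 (SE), a 3.70-fold rise in signal, with adjusted p = 0.000376 (limma). The control values lay close to the 25th percentile of the genes on the arrays (4.98 to 5.16) and are not known to be above background, so that the fold can understate the change.

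Syt9, a fast calcium sensor of synaptic vesicles, had the tightest control values of the genes that rose. Its control values were 8.71, 8.70 and 8.68 and its T3 values 9.44, 9.46 and 9.61. The groups were separated by many times the spread within the controls. Its log2 change was 0.81 ± 0.07 (SE), 1.75-fold, with adjusted p = 0.00131 (limma). Syt5, a calcium-binding member of the family, had control values of 9.35, 9.51 and 9.21 and T3 values of 10.10, 9.87 and 9.93. T3 replicate 1 was the highest, and the groups did not overlap. Its log2 change was 0.61 ± 0.10 (SE, adjusted p = 0.0144), a call lost without control replicate 1 or T3 replicate 3 (limma, adjusted p up to 0.0753).

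Syt2, a fast calcium sensor of synapses outside the forebrain, was a smaller case. Its control values were 6.58, 6.74 and 6.67 and its T3 values 7.03, 7.07 and 7.13, again without overlap. The log2 change was 0.41 ± 0.07 (SE, adjusted p = 0.0237), a call lost without any array but control replicate 2 (limma, adjusted p up to 0.126). Its promoter that holds the reversed thyroid core site is printed above.

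Syt1, the main calcium sensor of fast release, did not pass and its values overlapped between groups. They were 10.84, 10.86 and 10.56 on control arrays and 10.80, 10.68 and 10.66 on T3 arrays. The log2 change of -0.04 has a 95% interval of -0.26 to 0.18, which leaves out a rise as large as those of Syt9 or Syt12. Syt4, an activity-regulated member found on dense-core granules, had T3 values (9.49 to 9.73) above its control values (9.20 to 9.37) and a change of 0.34 on the log2 scale (adjusted p = 0.0887, limma). The remaining members had changes of 0.16 for Syt17, 0.11 for Syt13, 0.10 for Syt7, the slow high-affinity sensor, 0.04 for Syt11 and -0.14 for Syt6, with adjusted p of at least 0.418 (limma), and the sign of Syt11 and of Syt1 turned with the arrays used.

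**Figure D2:**
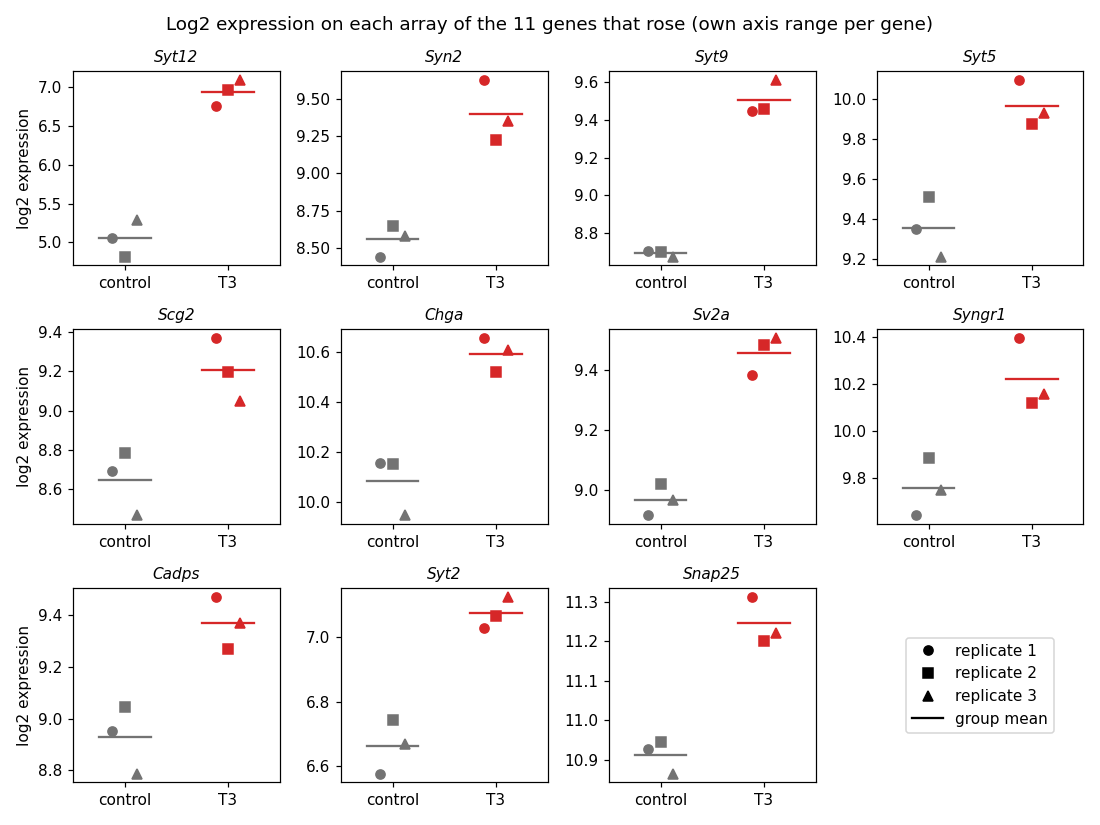
Log2 expression (y axis, own range per gene) on each control array (grey) and T3 array (red) of the 11 genes that rose, with replicate number shown by marker shape and group means by lines. In every panel the lowest T3 array lies above the highest control array, and the gap is widest for Syt12, from 5.29 to 6.77.

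Among SNARE proteins, which form the fusion complex, Snap25 rose and the other 2 measured genes, Stx1a and Vamp1, did not pass. Snap25, the plasma membrane SNARE of neurons, had control values of 10.93, 10.95 and 10.87 and T3 values of 11.31, 11.20 and 11.22. The T3 arrays were all higher, and the gap between the groups was wider than the range of either. The log2 change was 0.33 ± 0.07 (SE), 1.26-fold, with adjusted p = 0.0395 (limma), and the call was lost whichever single array was left out (largest adjusted p 0.156) and after centring on the 75th percentile. Stx1a, the syntaxin that pairs with it, had control values of 7.61, 7.54 and 7.55 and T3 values of 7.73, 7.76 and 7.84. These did not overlap either, but its change of 0.21 ± 0.07 (SE) had adjusted p = 0.181 (limma). Vamp1, a vesicle SNARE, had a change of 0.18 with overlapping groups, since control replicate 2, at 9.67, lay above 2 of the T3 arrays.

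Of the factors that regulate SNAREs and prime vesicles, 1 of 5 passed, against 3.1% of all genes, with a median log2 change of 0.28. Cadps, which primes dense-core granules, had control values of 8.95, 9.04 and 8.79 and T3 values of 9.47, 9.27 and 9.37, without overlap. Its change was 0.44 ± 0.09 (SE, adjusted p = 0.0380, limma), lost without any array but control replicate 2 (adjusted p up to 0.143). Cplx1, a complexin that clamps and promotes fusion, had a change of the same size, 0.46 ± 0.10 (SE), but a wider spread and adjusted p = 0.0567 (limma). Its T3 values, 7.87 to 8.12, lay above its control values, 7.37 to 7.67. Cplx2 at 0.22, Doc2b, a calcium sensor with 2 C2 domains, at 0.28 and Unc13a, the main priming factor of synaptic vesicles, at 0.09 overlapped between groups and had adjusted p of at least 0.359 (limma). The sign of Unc13a turned with array weights.

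None of the 7 genes of the active zone and of Rab3 docking passed (limma). An unadjusted p under 0.05 was reached by 3, all higher with T3, against 8.92% of all genes. The median log2 change of the 7 genes was 0.14. Rab3a, the main small GTPase of synaptic vesicles, came closest, with control values of 8.61, 8.65 and 8.39 and T3 values of 9.05, 8.88 and 8.97. These were separated, and the change of 0.41 ± 0.09 (SE) had adjusted p = 0.0522 (limma). Rims2, an active zone organiser that binds Rab3, had a change of 0.38 (adjusted p = 0.0957) and Rab3c one of 0.23 (adjusted p = 0.176, limma), both with separate groups. The large scaffolds Bsn and Pclo at 0.09 and 0.14, the Rab3 effector Rph3a at 0.02 and Rims1 at -0.01 overlapped between groups. Their 95% intervals reached at most 0.43, for Pclo, so that a rise of the size of Syt9 lay outside each of them, and the signs of Bsn, Rph3a and Rims1 turned under other settings.

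Among vesicle membrane proteins and synapsins, 3 of the 10 measured genes rose (Syn2, Sv2a and Syngr1), against 2.28% of all genes, and 7 did not pass. The median log2 change was 0.28. Syn2, one of the synapsins that tether vesicles to each other and to actin, had control values of 8.44, 8.65 and 8.58 and T3 values of 9.63, 9.22 and 9.35. T3 replicate 1 was highest, and the lowest T3 array exceeded the highest control array by more than the range of either group. The log2 change was 0.84 ± 0.11 (SE), 1.79-fold, with adjusted p = 0.00697 (limma). Syn1 had control values of 9.92, 9.95 and 9.71 and T3 values of 10.43, 10.06 and 10.09, barely separated, and a change of 0.33 ± 0.12 (SE, adjusted p = 0.225, limma). Syn3, at -0.02 with a 95% interval of -0.22 to 0.19, overlapped between groups, and its sign turned with the scaling.

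Sv2a, a vesicle glycoprotein with the fold of a transporter, had control values of 8.92, 9.02 and 8.97 and T3 values of 9.39, 9.48 and 9.51. Both groups were tight and apart, with a change of 0.49 ± 0.07 (SE, adjusted p = 0.00944, limma). The call was lost without control replicate 1, T3 replicate 2 or T3 replicate 3 (adjusted p up to 0.0591). Its relative Sv2b was the gene whose T3 arrays, at 7.93, 7.90 and 7.97, all lay below its control arrays, at 8.04, 8.09 and 8.10. The change of -0.15 ± 0.07 (SE) did not pass (adjusted p = 0.374, limma), and Sv2c had one of 0.02 with overlapping groups. Syngr1, a synaptogyrin of the vesicle membrane, had control values of 9.64, 9.88 and 9.75 and T3 values of 10.40, 10.12 and 10.16, separated by a small gap. Its change of 0.47 ± 0.10 (SE, adjusted p = 0.0440, limma) was lost without any array but control replicate 2 (largest adjusted p 0.195) and after centring on the 75th percentile. Syngr3 had a change of 0.23 and Synpr one of 0.03 (adjusted p of 0.368 and 0.976, limma). Syp, the synaptophysin gene widely used to stain synaptic vesicles, had control values of 9.99, 10.27 and 10.03 and T3 values of 10.54, 10.33 and 10.44, and its change of 0.34 ± 0.10 (SE) had adjusted p = 0.121 (limma).

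The changes of relatives are set side by side in 10 pairs, as a description with no test, since the pairs were chosen after their values were seen. The change of Syt12 exceeded that of Syt1 by 1.93 on the log2 scale, and those of Syt9, Syt5 and Syt2 exceeded it by 0.85, 0.65 and 0.45. The change of Syn2 exceeded that of Syn3 by 0.86 and that of Syn1 by 0.51. Sv2a exceeded Sv2b by 0.64 and Sv2c by 0.47. The differences between Syngr1 and Syngr3, at 0.24, and between Chga and Chgb, at 0.27, were the smallest of the 10. For Syngr1 and Syngr3 the differences taken on each array overlapped between groups, and for Chga and Chgb the highest control array and the lowest T3 array were level, both at 2.47.

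Genes of vesicle recovery did not pass. Snap91, the clathrin adaptor that sets vesicle size, had control values of 9.55 to 9.70 and T3 values of 9.88 to 10.00 without overlap, and a change of 0.32 ± 0.07 (SE, adjusted p = 0.0599, limma). Amph, which recruits dynamin to the neck of the bud, and Dnm1, the neuronal dynamin that cuts it, both had changes of 0.19 with overlapping groups (adjusted p of 0.383 and 0.490, limma). Of these 3 genes 1 had an unadjusted p under 0.05, against 13.7% of all genes.

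Granins and related granule proteins had the highest median change of the roles, 0.49. All 5 were higher with an unadjusted p under 0.05, against 8.92% of all genes. Chga, chromogranin A, which drives granule formation and is cut into signalling peptides, had control values of 10.15, 10.15 and 9.95 and T3 values of 10.66, 10.52 and 10.61. The groups were well apart, with a change of 0.51 ± 0.08 (SE), 1.42-fold, and adjusted p = 0.0156 (limma). Its call was lost without control replicate 1, T3 replicate 1 or T3 replicate 3 (adjusted p up to 0.0692). Scg2, secretogranin II, the source of secretoneurin, had control values of 8.69, 8.78 and 8.47 and T3 values of 9.37, 9.20 and 9.05. T3 replicate 1 was highest and control replicate 3 lowest. The change was 0.56 ± 0.11 (SE), 1.47-fold, with adjusted p = 0.0336 (limma), lost without any array but control replicate 2 (adjusted p up to 0.125).

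The other 3 granule genes had values on the same side without passing. Scg5, the chaperone of the prohormone convertase Pcsk2, had control values of 8.36, 8.57 and 8.15 and T3 values of 8.86, 8.77 and 8.94, and a change of 0.49 ± 0.11 (SE, adjusted p = 0.0522, limma). Chgb, chromogranin B, had control values of 7.68, 7.92 and 7.89 and T3 values of 8.09, 8.04 and 8.08. Its change of 0.24 ± 0.08 (SE) had adjusted p = 0.206 (limma). Scg3, which binds chromogranin A in the granule, had a change of 0.32 ± 0.12 (SE, adjusted p = 0.286, limma), and its groups overlapped because control replicate 2, at 9.36, exceeded T3 replicate 3, at 9.35.

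**Figure D3:**
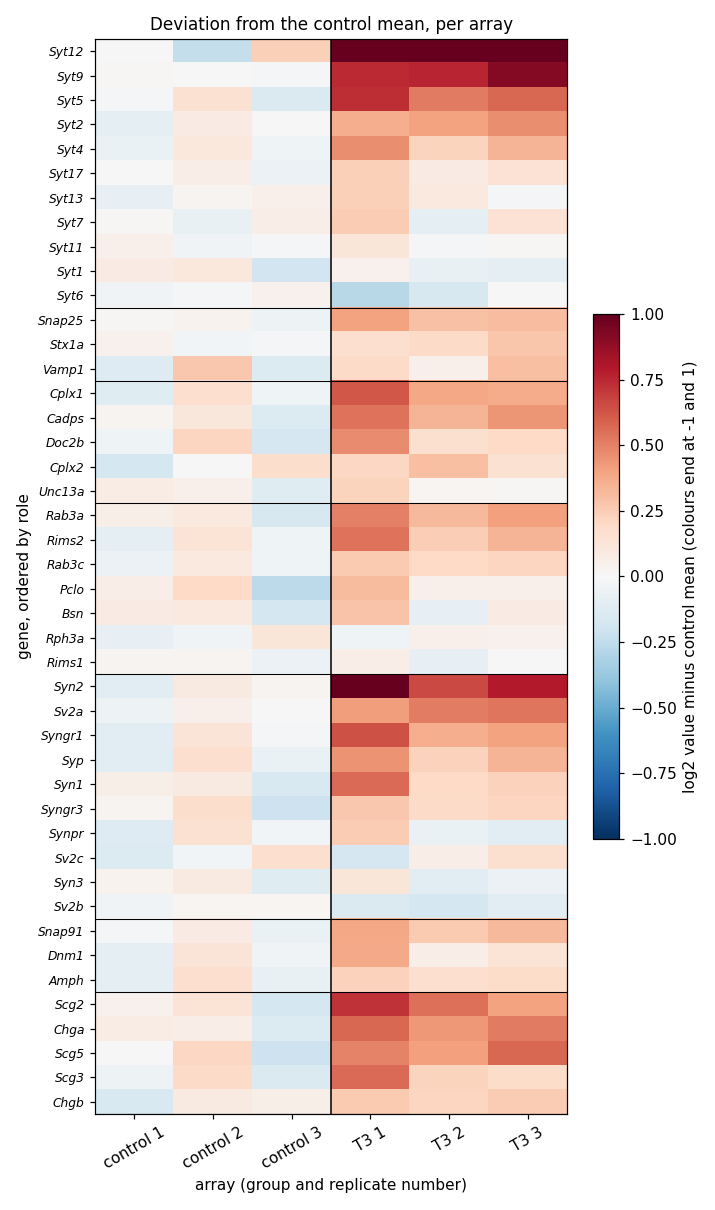
Deviation of each gene's log2 value from its control mean (colour, red above and blue below, ending at -1 and 1) on the 6 arrays (columns), with genes in rows by role. T3 replicate 1 is the reddest column and control replicate 2 the reddest of the controls: they were the highest array of their group for 32 and 30 of the 44 genes.

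Arrays of one group differed in a way that many of these genes shared. T3 replicate 1 was the highest T3 array for 32 of the 44 genes, 72.7%, against 41.0% of all genes, and T3 replicate 2 was the lowest for 28. Control replicate 2 was the highest control array for 30, 68.2%, against 38.9% of all genes, while control replicates 3 and 1 were the lowest for 21 and 19. The pan-neuronal markers followed the same order, with list means of 9.69 on T3 replicate 1 and 9.61 on T3 replicate 2, and of 9.59 on control replicate 2 and 9.40 on control replicate 3. Without T3 replicate 1 the median log2 change of the 44 genes was 0.21, and without control replicate 2 it was 0.31, against 0.23 with all arrays.

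Among genes that work beside these proteins some rose and, again, none fell. Of 136 measured genes on 3 further lists, 13 rose, which is 9.56% against 2.28% of all genes, and 123 did not pass (limma). At an unadjusted p under 0.05, 31 were higher and 6 lower, against 1779 and 958 of all 19938 genes. Among 57 other exocytosis genes 7 rose, with a median log2 change of 0.05. They were led by Rimbp2, an active zone scaffold that binds calcium channels, at 0.72 ± 0.13 (SE), Rab27b, a GTPase of granule docking, at 0.50 ± 0.09 (SE), Napb, a cofactor of SNARE disassembly, at 0.44 ± 0.08 (SE), and the Rab27 effector Sytl2 at 0.56 ± 0.11 (SE). The others were Rab27a, Nsf and Stxbp5l, named after their values were seen. Among 50 genes of vesicle filling and endocytosis Sncg, a synuclein of peripheral neurons, rose by 0.59 ± 0.10 (SE) and Atp6v1g2, a neuronal subunit of the proton pump, by 0.35 ± 0.07 (SE), with a median of 0.07. The pump gene Atp6v1a and the vesicle transporter-like gene Svop did not pass, at 0.24 and 0.40 (adjusted p of 0.104 and 0.0631, limma).

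Granule cargo and its processing held 2 of the larger changes. Of 29 measured genes 4 rose, with a median of 0.10. Sorl1, a sorting receptor between Golgi and endosomes, had a mean of 6.54 ± 0.10 (SD, n = 3) in controls and of 7.88 ± 0.11 (SD, n = 3) with T3, which is 2.54-fold higher (adjusted p = 0.000305, limma). Cyb561, which carries electrons into granules for the synthesis of noradrenaline and the amidation of peptides, had 7.48 ± 0.18 (SD, n = 3) in controls and 8.81 ± 0.09 (SD, n = 3) with T3, which is 2.53-fold higher (adjusted p = 0.000617, limma). Both passed in all 6 fits that left out 1 array. Ica1l, a granule-associated protein, rose by 0.62 ± 0.10 (SE), and Pcsk1n, an inhibitor of a prohormone convertase, by 0.59 ± 0.11 (SE). The calls of the 11 further genes on these 3 lists changed with the arrays used, as did the number called over all genes. With control replicate 1 or T3 replicate 3 left out none passed. Leaving out T3 replicate 2 kept 1, control replicate 3 kept 2, T3 replicate 1 kept 3 and control replicate 2 kept 9 (limma, largest adjusted p 0.207).

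Genes of noradrenergic and chromaffin cells, which hold the densest granules of the neural crest lineage, were set beside them. Of 10 measured genes 4 rose (Dbh, Phox2a, Npy and Cartpt), against 2.28% of all genes. The other 6 did not pass, with Th, Slc6a2, Slc18a1 and Chrna3 among them. The median log2 change was 0.28, and list means were 6.70 to 6.81 on control and 7.08 to 7.19 on T3 arrays. Of the 10 genes 8 had a change above 0, against 53.3% of all genes. The 2 below 0 were Pnmt and Gata3, which mark chromaffin and sympathetic cells, at -0.01 and -0.08. Their control values were 4.95 and 5.06, near the 25th percentile of genes. The part of such cells in the rise of the granule genes was not tested. Dbh was lost without T3 replicate 2 or 3, Phox2a without control replicate 1, Cartpt without control replicate 1 or T3 replicate 3, and Npy without control replicate 3 or any T3 array.

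**Figure D4:**
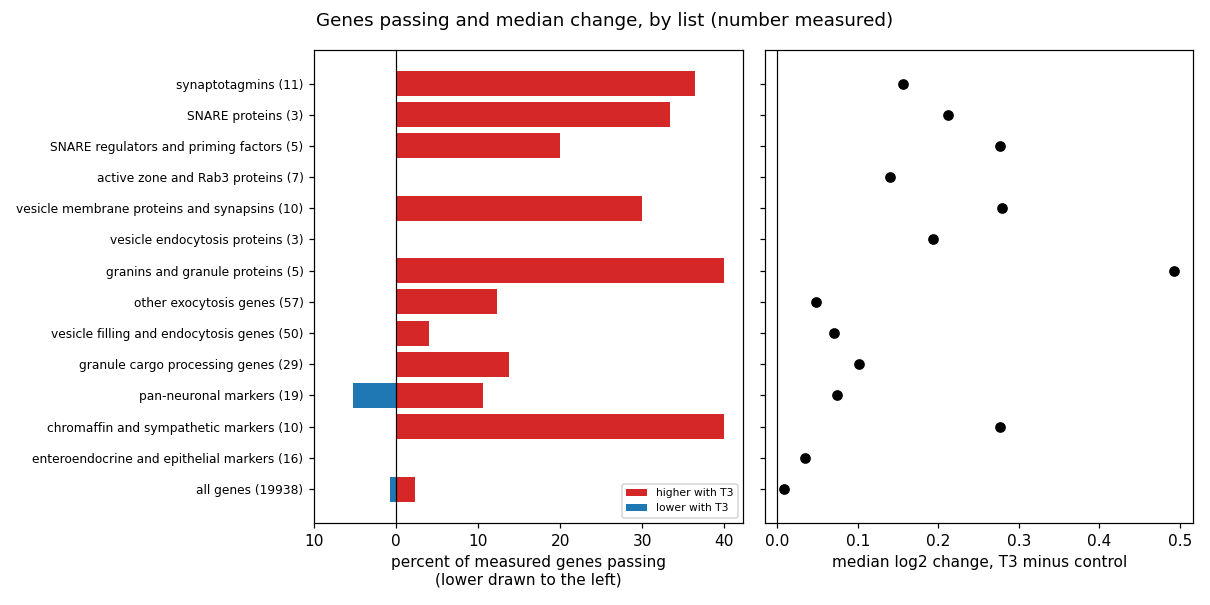
Percent of measured genes called higher (red) or lower (blue, drawn to the left) and median log2 change (right panel) for the 7 roles, the 3 further lists, 3 marker lists and all genes, with the number measured in brackets. Synaptotagmins reach 36.4%, granins 40.0% with a median of 0.49, and active zone and endocytosis genes 0%, against 2.28% of all genes.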

How the data were processed

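Log2 expression values per probe set were deposited by the authors for 6 arrays, 35556 probe sets in all. RMA and Partek version 6.5 are named in the submitters' processing notes. The sources used here give no settings and no build. RMA in its usual form forces all arrays to one distribution, so a change shared by most genes would be removed, and it compresses changes of dim genes. The deposited log2 values carry no detection calls.

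The platform annotation gave 1 symbol to 21789 probe sets, several to 1621 and listed no gene for 12146. One probe set per gene, that of highest mean, left 19938 genes. T3 was compared with control by limma 3.58.1 (R 4.3.3; lmFit, then eBayes), with p-values on both sides adjusted by Benjamini-Hochberg across the 19938 genes and called under 0.05. SE and 95% intervals are those of limma, and folds are of normalized signal. In simulated data with these genes and 200 changed ones in each of 20 runs, 2.77% of log2 changes of 0.3, 42.1% of 0.5 and 95.2% of 1 were recovered, and 5.37% of calls were false. Each run held fewer changed genes than the 618 called in the data, so the shares recovered in the data can be higher. A gene that did not pass can still have changed by a moderate amount.

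Members and gene lists were chosen with earlier results of these data known. The members may all be named, and of each further list up to 4 genes of smallest p; marker genes were named after their values were seen. Protein sequences were not used here. Same-numbered arrays were not treated as pairs. Arrays of a group differed pairwise with an SD of 0.137 to 0.243 over all genes, so none held copied values of another. This does not show whether they were separate cultures or technical replicates. The alternatives were a replicate block, 3 other scalings, filters that drop the dimmest 25% or 50% of genes, averaging the probe sets of a gene, trend with robust fitting, array weights and leaving out each array.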

Additional observations from a re-analysis of the deposited data

How the results depend on the processing

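Of the 11 genes called, none was called lower under any alternative that was run, and 8 (Syt2, Syt5, Syt9, Syt12, Sv2a, Syn2, Scg2 and Chga) passed in each of the 9 alternatives other than leaving out an array in which they were tested; Syt2 and Syt12 were removed by the filter on the dimmest 50% of genes. The number called of the 44 was 14 after a renewed quantile normalization, 15 after centring on the median, 10 after centring on the 75th percentile, 15 without the dimmest 25% of genes, 15 of 39 without the dimmest 50%, 17 with trend and robust fitting and 25 with array weights, where 3548 genes were called over all genes in place of 618. Leaving out 1 array gave 3 to 14 of the 44 and 191 to 640 of all genes. With the replicate number as a block, 8 of the 44 and 472 of all genes were called, and Snap25, Cadps and Syngr1 were lost. The correlations of same-numbered arrays' deviations from their group means were 0.18, 0.02 and 0.0002, and not every array correlated best with its own number. With 3 arrays per group these values cannot decide whether same-numbered samples came from one preparation, which the labels do not state. The cause of the larger count with array weights was not tested. The number of arrays and, for dim genes such as Syt12, the signal over background limit the precision.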

Other observations

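Several genes lay just outside the threshold. Rab3a, Scg5, Cplx1 and Snap91 had adjusted p of 0.0522, 0.0522, 0.0567 and 0.0599 (limma), all with T3 arrays above all control arrays, and passed in 6, 7, 5 and 6 of the 9 alternatives other than leaving out an array. Syt4 and Rims2, at 0.0887 and 0.0957, passed in 3 and 2 of them.

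Unc13a was the only one of the 44 genes with more than 1 probe set of its own name. Its 3 probe sets had log2 changes of 0.09, 0.06 and -0.03, so none showed a change near those of the genes that rose.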
